A study of Mus musculus with 6 samples.

Results

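The 88 genes described here are nuclear genes for protein subunits of the mitochondrial respiratory chain. They were chosen by name, as protein-coding genes whose mouse symbol begins with Ndufa, Ndufb, Ndufc, Ndufs or Ndufv, is *Sdha*, *Sdhb*, *Sdhc* or *Sdhd*, or begins with Uqcr, Cox4 to Cox8 or Atp5, without assembly factors, *Atp5s* and pseudogenes. By symbol, 41 belonged to complex I, 4 to complex II, 8 to complex III, 18 to complex IV and 17 to complex V. The rule by symbol leaves out *Cyc1*, cytochrome c1 of complex III, which was counted with the electron carriers. Of the 88, 83 were among the 18460 genes listed in at least 1 tumor, and 81 were among the 13706 genes that passed the filter on low counts and were tested. *Ndufb1*, *Ndufb4b*, *Ndufb4c*, *Cox7b2* and *Cox8c* were listed in no tumor, and *Cox4i2* and *Cox6a2* were listed but did not pass the filter. Copies such as *Ndufb4b* and *Ndufb4c* are nearly identical to *Ndufb4*, and 19 of the 88 genes overlap another listed gene in the annotation, so reads of such genes are uncertain. Among the genes whose levels are given below, *Ndufs1*, *Ndufa4l2*, *Cox4i2*, *Cox6a2*, *Cox7a2*, *Atp5a1* and *Atp5d* have such an overlap. The rule used symbols and no expression value, but it was chosen with earlier results of these data known.

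RNA sequencing was available for 6 breast tumors of BALB/c mice. All animals carried the *MMTV-PyMT* transgene, which drives polyoma middle T in mammary epithelium, lacked *Rag1* and so had no T or B cells of their own, and had been given naive CD4+ T cells sorted from wild-type donor mice at 4 wk of age. The 3 test tumors (Tslp-PyMt tg Rag1 KO, given CD4+ T cells) came from animals that also carried *K14-Tslp*, in which the keratin 14 promoter drives the cytokine thymic stromal lymphopoietin in keratinocytes. The 3 control tumors (PyMt tg Rag1 KO, given CD4+ T cells) came from animals without *K14-Tslp*, and all tumors were taken at the endpoint of week 18 to 20. The comparison asks how the tumor transcriptome differs where CD4+ T cells act with or without overexpressed TSLP. Per the study's description of its tumors, every tumor was taken from a different animal.

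The respiratory chain moves electrons from NADH and succinate to oxygen and stores the released energy as ATP. Complex I (NADH dehydrogenase) and complex II (succinate dehydrogenase) pass electrons to ubiquinone, complex III (the cytochrome bc1 complex) passes them on to cytochrome c, and complex IV (cytochrome c oxidase) reduces oxygen. Protons pumped on the way return through complex V, the ATP synthase. Complexes I, III, IV and V are built from nuclear and mitochondrial gene products, and complex II from nuclear ones alone. Several complex IV subunits exist as pairs of isoforms, of which one is found in most tissues and the other in heart and skeletal muscle, lung or testis.

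Promoters of respiratory chain genes are known for sites of nuclear respiratory factor 1 (NRF1) and of ETS-family factors such as GABP, also called nuclear respiratory factor 2. The 250 bases before each annotated start (RefSeq, GRCm38.p6) were searched on both strands. The letters searched were GCGCANGCG for NRF1, where N is any base. For ETS factors they were CCGGAAG. For the factor YY1, which also binds near many starts, they were AAGATGGCG. A TATA box was searched as TATAAA. RefSeq promoters matched 71 of the 88 genes, with 76 promoters. The promoters of the gene with the largest log2 fold change in each complex are shown, together with that of *Cox6a1*, because these genes carry the results below and because they differ in these letters. Each is printed 5′ to 3′ on the strand of its gene, with matches to the searched letters on either strand in capitals.
Ndufs6 (complex I), chr13:73328483-73328732, minus strand: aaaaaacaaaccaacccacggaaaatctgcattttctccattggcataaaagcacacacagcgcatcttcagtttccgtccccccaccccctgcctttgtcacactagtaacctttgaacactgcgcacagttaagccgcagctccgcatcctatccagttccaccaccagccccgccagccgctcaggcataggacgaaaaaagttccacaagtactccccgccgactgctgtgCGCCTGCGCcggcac
Sdhd (complex II), chr9:50603850-50604099, minus strand: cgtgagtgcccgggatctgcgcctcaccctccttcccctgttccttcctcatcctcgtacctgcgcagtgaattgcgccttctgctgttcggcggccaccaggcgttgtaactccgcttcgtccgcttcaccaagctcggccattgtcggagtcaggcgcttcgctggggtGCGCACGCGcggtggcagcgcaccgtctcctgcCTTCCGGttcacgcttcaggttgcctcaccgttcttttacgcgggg
Uqcr11 (complex III), chr10:80406822-80407071, minus strand: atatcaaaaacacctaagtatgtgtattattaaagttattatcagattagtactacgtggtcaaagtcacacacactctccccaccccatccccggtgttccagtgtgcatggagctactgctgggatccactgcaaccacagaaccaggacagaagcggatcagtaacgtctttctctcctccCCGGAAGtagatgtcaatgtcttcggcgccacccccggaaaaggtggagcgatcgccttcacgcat
Cox6a1 (complex IV), chr5:115348959-115349208, minus strand: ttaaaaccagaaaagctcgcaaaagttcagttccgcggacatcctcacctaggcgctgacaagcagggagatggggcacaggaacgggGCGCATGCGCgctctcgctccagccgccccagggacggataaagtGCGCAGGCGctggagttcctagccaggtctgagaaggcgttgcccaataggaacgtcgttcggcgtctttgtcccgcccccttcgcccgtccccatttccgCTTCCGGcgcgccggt
Cox7a1 (complex IV), chr7:30183921-30184170, plus strand: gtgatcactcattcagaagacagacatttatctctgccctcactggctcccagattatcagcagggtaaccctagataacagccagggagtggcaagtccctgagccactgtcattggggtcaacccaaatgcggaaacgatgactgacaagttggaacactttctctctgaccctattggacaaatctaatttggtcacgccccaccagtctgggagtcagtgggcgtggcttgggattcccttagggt
Atp5e (complex V), chr2:174464102-174464351, minus strand: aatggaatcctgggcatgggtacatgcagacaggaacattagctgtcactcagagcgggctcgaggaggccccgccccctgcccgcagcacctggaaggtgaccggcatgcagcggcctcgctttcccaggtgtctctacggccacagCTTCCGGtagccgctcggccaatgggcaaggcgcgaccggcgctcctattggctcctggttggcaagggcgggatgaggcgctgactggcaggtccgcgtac

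The *Ndufs6* promoter held NRF1 letters from 15 to 7 bases before the start. That of *Sdhd* held NRF1 letters 79 to 71 and ETS letters 46 to 40 bases before the start. *Uqcr11* and *Atp5e* held ETS letters alone, at 66 to 60 and 102 to 96 bases. *Cox6a1*, the form found in most tissues, held NRF1 letters at 162 to 153 and 117 to 109 bases and ETS letters at 16 to 10 bases, and the muscle and heart form *Cox7a1* held none of the letters searched. Capitalized matches of different factors did not overlap, and the first NRF1 stretch of *Cox6a1* matched on both strands. Among the 76 promoters of respiratory chain genes, 15 (19.74%) held NRF1 letters, against 5.16% of 32851 promoters. ETS letters were in 12 (15.79%) against 6.91%, and YY1 letters in 1 (1.32%) against 0.61%. TATA letters were in 8 (10.53%) against 12.37%. At least 1 of NRF1, ETS and YY1 letters was in 23 (30.26%) against 11.72% of all promoters. A match describes the letters in this window and not a bound site, and no match says only that these letters are not in it.

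Levels are given as CPM, the expected counts of a gene relative to the TMM-scaled total of the tumor, for comparisons between tumors, and as the deposited FPKM, which is also divided by gene length, for comparisons between genes. Per-tumor values stand in the order of replicates 1, 2 and 3. Total expected counts ran from 8373390 to 9449565 per tumor. *Tslp* had 2, 2 and 3 counts in the control tumors and 12, 7 and 2 in the test tumors, so *Tslp* was above the floor of 3 counts in test replicates 1 and 2, and in test replicate 3 it was no higher than in the control tumors, which do not carry the transgene. *Rag1* had 27, 4 and 10 counts in the control tumors and 6, 12 and 9 in the test tumors. The luminal keratin *Krt8* ran from 373 to 806 CPM in the control tumors and from 1128 to 1442 CPM in the test tumors. All 8 markers of mammary luminal epithelium were listed. In 3 of them, *Krt8*, *Krt18* and *Krt19*, every test tumor was above every control tumor, against 6.12% of all tested genes. *Epcam*, *Cdh1*, *Elf5*, *Gata3* and *Esr1* overlapped between the groups, with log2 fold changes from -0.42 for *Esr1* to 0.73 for *Elf5*. Test replicate 2 differed from the other tumors in the lengths of the genes that held its counts. Genes shorter than 800 bases held 11.4% of its counts, against 4.42% to 6.55% in the other 5 tumors. The lowest share, 4.42%, was in control replicate 1.

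Transcripts of the respiratory chain were abundant in every tumor, and 79 of the 81 tested genes had a higher fitted mean in the test tumors, although no gene passed the test. The median log2 fold change (test minus control) of the 81 genes was 0.45, against 0.02 for all tested genes. Of all tested genes, 51.5% had a log2 fold change above 0. The exceptions were *Sdhc*, a membrane anchor of complex II, with a log2 fold change of -0.03, and *Cox6b2*, a complex IV isoform known from testis, with -0.47. Counts were tested with edgeR's quasi-likelihood test and Benjamini-Hochberg adjustment over all 13706 genes, and adjusted p-values below are from this test. At a false discovery rate of 0.05, 0 of the 81 genes were called, beside 0.0% of all tested genes. At an unadjusted p under 0.05, 1 of the 81 passed, against 8.41% of all tested genes. DESeq2 called 313 (2.28%) of all tested genes and 0 of the 81, and limma on log2(FPKM + 1) called 1 gene in all and 0 of the 83 listed.

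The range between tumors was wide. For the 77 genes whose mean level was 10 FPKM or more, the highest tumor held from 1.22 to 5.97 times the CPM of the lowest, with a median of 2.36 times. Test replicate 2 was the highest tumor for 72 of the 81 genes (88.9%, against 25.7% of all tested genes) and control replicate 1 was the lowest for 66 (81.5%, against 21.6%). The median deviation of the 81 genes from their own mean over the 6 tumors, on the log2(CPM + 0.5) scale, was -0.49, 0.04 and -0.13 in the control tumors and -0.19, 0.78 and 0.00 in the test tumors. Between test replicates 1 and 3 and control replicates 2 and 3, the mean difference on this scale had a median of -0.03 over the 81 genes. That comparison sets aside the highest and the lowest tumor after their values were seen. The summed level of the 6 fibroblast markers was also highest in test replicate 2 and lowest in control replicate 1, at 967, 2948 and 1961 CPM in the control tumors and 1161, 4971 and 1956 CPM in the test tumors. That sum is mostly collagen transcripts. Of the 6 single markers, 4 were highest in test replicate 2 and 1, *Col1a1*, was lowest in control replicate 1. The 8 luminal markers summed to 2405, 4318 and 2139 CPM in the control tumors and 5563, 5669 and 5624 CPM in the test tumors. A large part of that luminal sum is keratin transcripts. The part of the cell makeup in the levels of the chain was not tested.

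**Figure D1:**
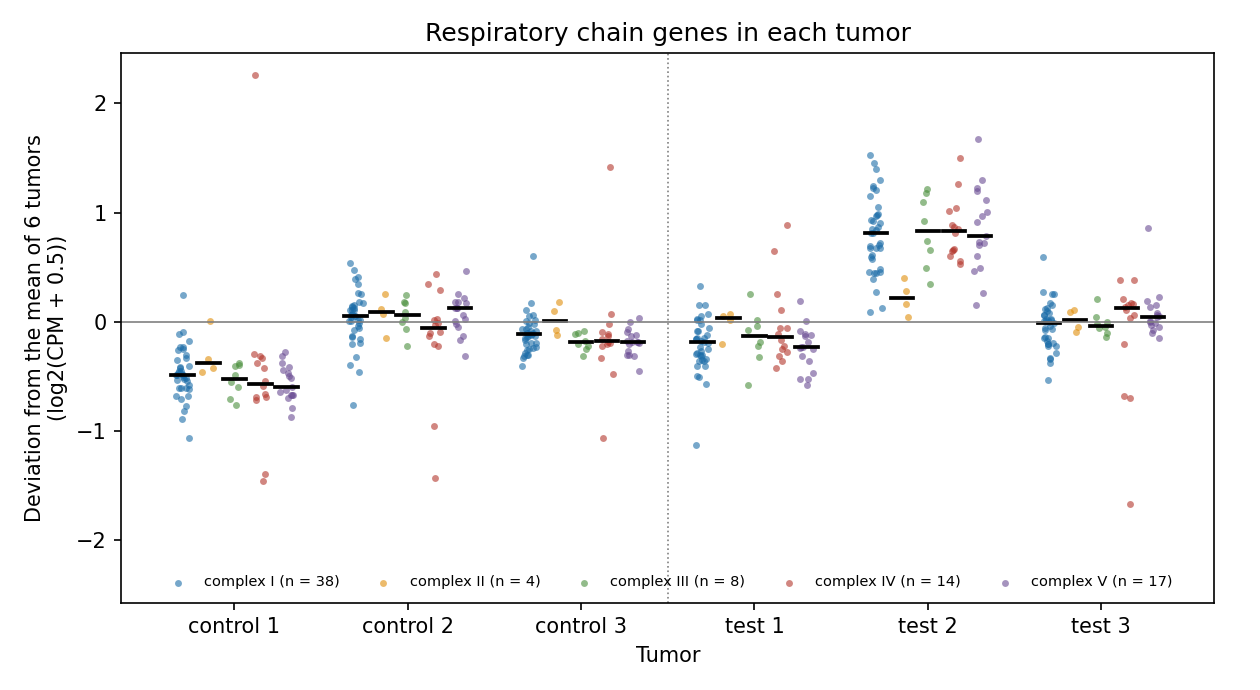
Deviation of each of the 81 tested respiratory chain genes from its mean over the 6 tumors (y axis, log2(CPM + 0.5)) in each tumor (x axis), with genes colored by complex and black bars at the median of each complex. Complexes I, III, IV and V sat highest in test replicate 2 (medians of 0.81, 0.83, 0.83 and 0.78) and complex II deviated least there (0.22), while all 5 complexes were lowest in control replicate 1.

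The groups did not overlap for 3 of the 81 genes, all with every test tumor above every control tumor, against 6.12% of all tested genes in that direction. In the other direction the count was 0, against 5.86% of all tested genes. *Ndufs3*, a subunit of the arm of complex I that reaches into the matrix, had 46.1, 62.5 and 63.4 CPM in the control tumors and 69.6, 121 and 70.1 CPM in the test tumors. *Atp5d*, the delta subunit in the central stalk of the ATP synthase, had 184, 228 and 222 CPM in the control tumors and 237, 501 and 253 CPM in the test tumors. *Atp5d* overlaps *Cbarp* in the annotation, which leaves its reads uncertain. *Atp5mpl*, a small membrane protein of the ATP synthase, had 22.8, 29.4 and 30.3 CPM in the control tumors and 31.1, 91.2 and 41.9 CPM in the test tumors. In each of these 3 genes, test replicate 1 lay just above the highest control tumor and test replicate 2 was the highest tumor by far. *Atp5mpl* was the gene with an unadjusted p under 0.05, at a log2 fold change of 0.99 (SE 0.42) and an adjusted p of 0.581. For each of the 3 genes the exact permutation test (two-sided) gave p = 0.1, the smallest value that 3 tumors against 3 allow. Without test replicate 2, the log2 fold change of *Atp5mpl* was 0.41, that of *Ndufs3* was 0.29 and that of *Atp5d* was 0.21.

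In complex I, all 38 tested genes had a log2 fold change above 0, from 0.02 to 0.97, with a median of 0.46 and none past the test. *Ndufs6*, an accessory subunit that binds zinc, had the largest log2 fold change, with 41.3, 72.4 and 58.0 CPM in the control tumors and 54.9, 202 and 79.1 CPM in the test tumors. The value in test replicate 2 was far above the other 5 tumors, and the remaining test tumors overlapped the control tumors. Its log2 fold change was 0.97 (SE 0.50, adjusted p = 0.666), and 0.23 without test replicate 2. *Ndufs1*, the large iron-sulfur subunit, had 79.5, 97.1 and 81.1 CPM in the control tumors and 81.3, 94.4 and 85.9 CPM in the test tumors. It had the narrowest range of the abundant genes and a log2 fold change of 0.02 (SE 0.22, adjusted p = 0.981). *Ndufv1*, which binds the flavin that accepts electrons from NADH, had 41.7, 74.4 and 66.5 CPM in the control tumors and 67.9, 92.3 and 69.9 CPM in the test tumors. Apart from the low control replicate 1 and the high test replicate 2, these *Ndufv1* values lay between 66.5 and 74.4 CPM, and the log2 fold change was 0.33 (SE 0.29, adjusted p = 0.785).

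*Ndufa4* is counted here under complex I by its symbol, although its protein is known as a subunit of complex IV. It had the highest mean level of the genes under complex I, at 313 FPKM, with 83.3, 147 and 117 CPM in the control tumors and 123, 269 and 139 CPM in the test tumors. The groups overlapped, with a log2 fold change of 0.61 (SE 0.38, adjusted p = 0.701). *Ndufa4l2*, a related gene known as a target of hypoxia-inducible factor, was far lower, at a mean of 2.72 FPKM. Its CPM were 2.89, 1.19 and 3.84 in the control tumors and 0.807, 3.42 and 3.82 in the test tumors (log2 fold change 0.02, SE 0.71, adjusted p = 0.995). *Ndufa4l2* was the gene of complex I in which test replicate 1 deviated most downward. *Ndufa4l2* overlaps *Shmt2* in the annotation, and because no source used here says whether counting used the strand, its reads are uncertain.

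Complex II, which also serves the citric acid cycle, differed least between the groups. The 4 genes had log2 fold changes from -0.03 to 0.20, with a median of 0.19 and adjusted p-values of at least 0.836. *Sdha*, the flavoprotein that oxidizes succinate, had 137, 189 and 165 CPM in the control tumors and 181, 195 and 185 CPM in the test tumors. Control replicate 1 was the lowest of the 6 *Sdha* values, and the log2 fold change was 0.19 (SE 0.23). *Sdhb*, the iron-sulfur subunit, had the highest mean level of the 4 genes, at 81.6 FPKM, with 62.5, 90.6 and 92.5 CPM in the control tumors and 91.1, 105 and 83.7 CPM in the test tumors. Both anchors in the membrane, *Sdhc* and *Sdhd*, overlapped between the groups. *Sdhc* had 91.9, 82.6 and 104 CPM in the control tumors and 92.7, 94.6 and 85.7 CPM in the test tumors, and *Sdhd*, with the largest log2 fold change of the complex at 0.20 (SE 0.28), had 57.6, 92.4 and 71.1 and 67.1, 102 and 83.6 CPM. The *Sdhc* values made it the only gene of complexes I, II, III and V with a log2 fold change below 0.

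All 8 genes that the symbols place in complex III had a log2 fold change above 0, from 0.27 to 0.72, and all 8 were highest in test replicate 2. *Uqcr11*, a small subunit of the membrane part, had the largest log2 fold change, with 55.5, 70.2 and 77.1 CPM in the control tumors and 70.2, 191 and 74.4 CPM in the test tumors. Without the 190.8 CPM of test replicate 2, the *Uqcr11* values of the groups lay within the same range, and the log2 fold change went from 0.72 (SE 0.42, adjusted p = 0.699) to 0.10. *Uqcrb*, which lies near the site where ubiquinone binds, had the highest mean level of the complex at 316 FPKM and an adjusted p of 0.683. Its CPM were 111, 139 and 117 in the control tumors and 128, 244 and 168 in the test tumors, where test replicates 2 and 3 stood above all control tumors and test replicate 1 did not. *Uqcrc1*, a core subunit, had 139, 195 and 182 CPM in the control tumors and 191, 308 and 193 CPM in the test tumors (log2 fold change 0.42, SE 0.29). *Uqcrfs1*, the Rieske iron-sulfur protein, had 52.3, 89.4 and 69.1 CPM in the control tumors and 95.0, 101 and 82.1 CPM in the test tumors (log2 fold change 0.40, SE 0.27). For *Uqcrfs1*, test replicates 1 and 2 were close to each other, unlike in most genes of the chain.

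In complex IV, 13 of the 14 tested genes had a log2 fold change above 0, with a median of 0.46. The highest mean level was that of *Cox6b1*, a subunit on the side of the intermembrane space, at 472 FPKM, with 127, 213 and 166 CPM in the control tumors and 180.0, 433 and 243 CPM in the test tumors. Test replicates 2 and 3 stood above all control tumors for *Cox6b1*, and test replicate 1 lay among them (log2 fold change 0.76, SE 0.38, adjusted p = 0.665). *Cox4i1*, a regulatory subunit, had 141, 209 and 195 CPM in the control tumors and 205, 339 and 235 CPM in the test tumors (log2 fold change 0.52, SE 0.30, adjusted p = 0.698). The 2 subunits *Cox7b* and *Cox7a2l* overlapped between the groups. *Cox7b* had 106, 140.2 and 119 CPM in the control tumors and 133, 211 and 142 CPM in the test tumors (log2 fold change 0.41, SE 0.27). *Cox7a2l* had 181, 287 and 161 and 242, 332 and 195 CPM (log2 fold change 0.29, SE 0.33). The control values of *Cox7a2l* spread widely, with control replicate 2 above both test replicates 1 and 3.

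In the 3 pairs of a widely expressed isoform with a muscle and heart isoform, the widely expressed one had the higher level in every tumor. On the FPKM scale, the mean level of *Cox6a1* was 136.7 times that of *Cox6a2*, that of *Cox8a* 59.8 times that of *Cox8b*, and that of *Cox7a2* 12.9 times that of *Cox7a1*, all in FPKM over the 6 tumors. *Cox7a1* made up 2.54%, 9.66% and 6.18% of the summed FPKM of its pair in the control tumors and 8.25%, 10.4% and 2.63% in the test tumors, and the share of *Cox8b* ran from 0.232% to 4.02%. Widely expressed forms followed the other genes of the chain. *Cox6a1* had 137, 172 and 197 CPM in the control tumors and 186, 289.9 and 261 CPM in the test tumors (log2 fold change 0.54, SE 0.28, adjusted p = 0.666). *Cox7a2* had 44.7, 63.0 and 65.1 and 64.5, 131 and 94.8 CPM (log2 fold change 0.75, SE 0.32, adjusted p = 0.595), and *Cox8a* had 145, 167 and 172 and 155, 287 and 207 CPM (log2 fold change 0.42, SE 0.29, adjusted p = 0.73). In all 3, test replicate 2 was the highest tumor, test replicate 3 the second highest and control replicate 1 the lowest.

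The muscle and heart isoforms did not follow that order. *Cox6a2* had 0, 9 and 2 counts in the control tumors and 73, 7 and 9 counts in the test tumors, so 73 of its counts lay in test replicate 1, and its level there was 13.3 FPKM against 0 to 1.54 FPKM elsewhere. As a share of the summed FPKM of *Cox6a2* and *Cox6a1*, it was 3.39% in test replicate 1 and 0% to 0.435% in the other 5 tumors. *Cox7a1* had 0.579, 3.35 and 2.13 CPM in the control tumors and 2.88, 7.57 and 1.27 CPM in the test tumors, and *Cox8b* had 0.231, 0.541 and 4.90 and 3.23, 3.05 and 0.743 CPM. *Cox7a1* was highest in test replicate 2 and *Cox8b* in control replicate 3, and for both the groups overlapped, with log2 fold changes of 0.94 (SE 0.83) and 0.30 (SE 1.08). The log2 fold change of *Cox7a1*, the largest of complex IV, was 0.03 without test replicate 2.

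Most markers of skeletal muscle were highest in the same tumor as *Cox6a2*. All 18 markers of skeletal muscle were listed, and 16 were tested, all with a log2 fold change above 0. Their summed level was 20.8, 289 and 25.0 CPM in the control tumors and 1556, 275 and 169.9 CPM in the test tumors. The highest sum was in test replicate 1, as for *Cox6a2*. Among single markers, *Pvalb* was highest in test replicate 2, *Casq1* and *Tnnt1* in control replicate 2 and *Myh7* in control replicate 3. *Ckm* was at 0 in control replicate 1, *Myl1* in control replicates 1 and 3, *Tnnt1* in control replicate 3, and *Myh7*, of slow fibers, in control replicate 2 and all test tumors. The 8 adipocyte markers summed to 39.7, 44.8 and 35.8 CPM in the control tumors and 437, 127 and 34.0 CPM in the test tumors, with *Plin1* at 0 in control replicate 1 and test replicate 3, *Lep* in these and in test replicate 2, and *Retn* in control replicate 1. The part of muscle or fat tissue in the levels of these isoforms was not tested, and in bulk tumor RNA fewer cells of a type and less RNA per cell cannot be told apart. *Cox6a2* overlaps *Itgad* and *Cox7a2* overlaps *Tmem30a* in the annotation, which leaves their reads uncertain.

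Isoforms known from lung and testis were also low. *Cox4i2*, known from lung and low oxygen, had 1.16, 0.865 and 2.34 CPM in the control tumors and 0.346, 4.64 and 0.424 CPM in the test tumors, and *Cox4i1* was 147.7 times higher in mean FPKM. *Cox6b2* had 8.80, 0.216 and 0.426 CPM in the control tumors and 2.54, 4.15 and 0.106 CPM in the test tumors. Its level in control replicate 1 was above that in all other tumors, whereas most genes of the chain were lowest there. For *Cox6b2*, 1 library decided the direction, with a log2 fold change of -0.47 (SE 1.43) in all tumors and 2.75 without control replicate 1. *Cox6b2* made up 6.17% of the summed FPKM of *Cox6b2* and *Cox6b1* in control replicate 1 and 0.0453% to 1.27% in the other tumors. *Cox7b2* and *Cox8c*, both known from testis, were listed in no tumor.

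**Figure D2:**
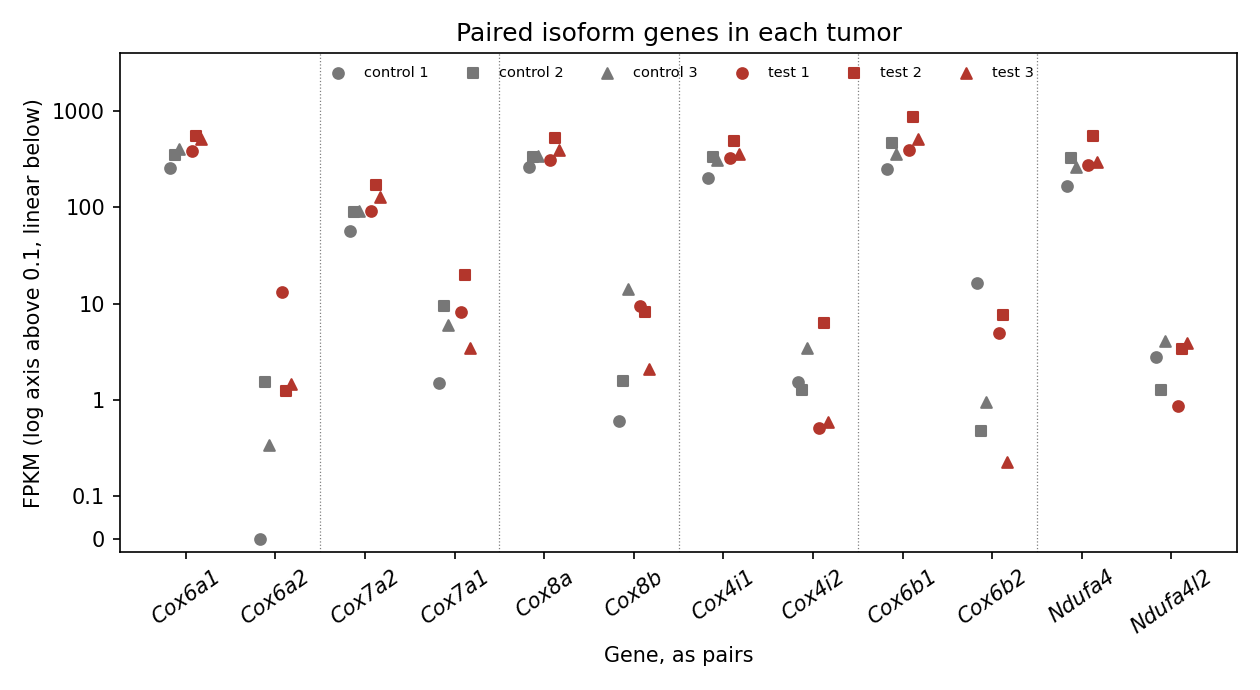
FPKM in each tumor (y axis, log above 0.1 and linear below) of 6 pairs of genes (x axis), with the widely expressed gene on the left of each pair; gray marks the 3 control tumors, red the 3 test tumors, and marker shapes the replicates. The left-hand genes lay between 57.2 and 863 FPKM, and the right-hand genes between 0 and 19.8 FPKM with a wider relative spread.

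In complex V, all 17 genes had a log2 fold change above 0, from 0.17 to 1.07, with a median of 0.47. The catalytic head is built from alpha and beta subunits. *Atp5b*, the beta subunit, had the highest mean level of all 88 genes, at 616 FPKM, with 837, 1239 and 1083 CPM in the control tumors and 1046, 1568 and 1174 CPM in the test tumors. *Atp5a1*, the alpha subunit, had 543, 904 and 775 CPM in the control tumors and 781, 862 and 862 CPM in the test tumors. The test values of *Atp5a1* lay within the control range, and its log2 fold change was 0.17 (SE 0.30, adjusted p = 0.888), beside 0.26 (SE 0.31, adjusted p = 0.836) for *Atp5b*. *Atp5e*, the epsilon subunit of the central stalk and a short gene of 419 bases, had the largest log2 fold change of the whole chain. It had 20.1, 37.4 and 30.2 CPM in the control tumors and 24.8, 120.1 and 39.4 CPM in the test tumors. Test replicate 2 stood far above the other 5 tumors, and the log2 fold change was 1.07 (SE 0.58, adjusted p = 0.685) in all tumors and 0.14 without it.

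The c subunit, which forms the rotating ring, is encoded by 3 genes that give the same mature protein. *Atp5g2* had the highest mean level of the 3, at 294 FPKM, followed by *Atp5g1* at 265 FPKM and *Atp5g3* at 146 FPKM. Control replicate 2 and test replicate 2 were the highest tumors for *Atp5g1*, with 119, 262 and 153 CPM in the control tumors and 132, 382 and 197 CPM in the test tumors. *Atp5g2* had 143, 202 and 156 and 151, 290.3 and 161 CPM, and *Atp5g3* had 59.8, 101 and 81.0 and 84.6, 141 and 109 CPM. The log2 fold changes of *Atp5g1*, *Atp5g2* and *Atp5g3* were 0.41 (SE 0.46), 0.26 (SE 0.33) and 0.47 (SE 0.30). *Atp5h*, the d subunit of the peripheral stalk, was named after its values were seen, because it was the only gene highest in test replicate 3. It had 103, 167 and 120.1 CPM in the control tumors and 118, 271 and 299.8 CPM in the test tumors, so that test replicates 2 and 3 stood above all control tumors while test replicate 1 did not (log2 fold change 0.82, SE 0.39, adjusted p = 0.645).

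Summed over the listed genes of a complex, FPKM was highest in test replicate 2 and lowest in control replicate 1 in each complex, and the order of the other 4 tumors differed between complexes. Complex I summed to 2397, 3999 and 3339 FPKM in the control tumors and to 3301, 6401 and 3427 FPKM in the test tumors. Complex II had 215, 305 and 298 FPKM in the control tumors and 290.0, 311 and 281 FPKM in the test tumors, so that it varied far less. Complex V had 2539, 4356 and 3609 FPKM in the control tumors and 3508, 6490 and 4238 FPKM in the test tumors. The makeup of the chain was steadier than its sum. While the sum over all 83 listed genes ran from 7941 FPKM in control replicate 1 to 20514 FPKM in test replicate 2, the share of complex I ran from 27.3% to 31.2%, that of complex III from 11.2% to 12.5%, that of complex IV from 22.5% to 25.5% and that of complex V from 31.6% to 33.8%. The share of complex II was 2.23% to 2.71% in the other 5 tumors and 1.52% in test replicate 2. Groups overlapped in all 5 sums, with means of 4376 ± 1754 (SD, n = 3) FPKM in test and 3245 ± 805 (SD, n = 3) FPKM in control tumors for complex I and 294 ± 15.7 (SD, n = 3) and 273 ± 49.8 (SD, n = 3) FPKM for complex II. Part of the range in FPKM lies in its scale, since FPKM over all genes summed to 462579 in control replicate 1 and 628598 in test replicate 2. In CPM, the 83 genes summed to 6908 and 15775 in these 2 tumors.

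**Figure D3:**
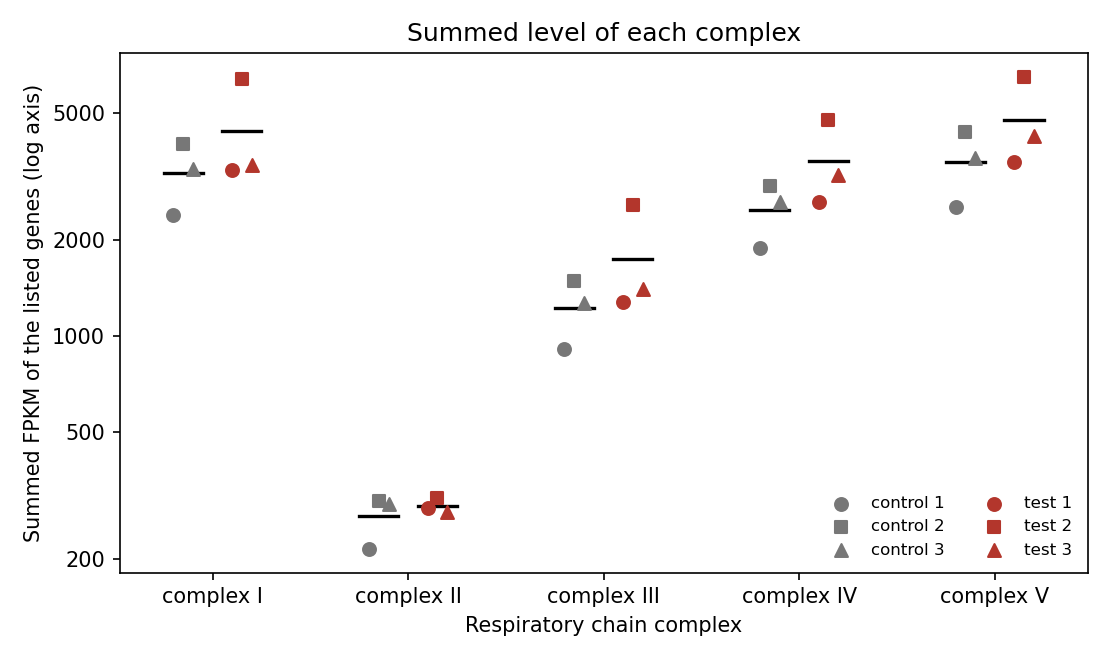
Summed FPKM of the listed genes of each complex (y axis, log axis) in each tumor, with gray markers for the 3 control tumors, red markers for the 3 test tumors and black bars at the group means. Test replicate 2 lay highest in every complex and control replicate 1 lowest, with the narrowest spread in complex II, from 215 to 311 FPKM.

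The log2 fold change of the respiratory chain genes followed gene length. The 16 tested genes under 500 bases had a median log2 fold change of 0.63, the 35 from 500 to below 800 bases 0.48, the 20 from 800 to below 1500 bases 0.38 and the 10 from 1500 to below 3000 bases 0.27. No gene of the chain was longer. The medians of all tested genes of the same lengths had the same sign and order, at of 0.63 (104 genes), 0.44 (452 genes), 0.25 (1837 genes) and 0.05 (5020 genes), and at -0.11 for the 6293 genes of 3000 bases or more. Short genes were most of the chain, with a median length of 657 bases, and complex II, the complex that varied least, had the longest genes, with a median of 1233 bases. Across the 81 genes, Pearson's r of the log2 fold change with log2 length was -0.47 and Spearman's rho -0.51, as a description over genes that share the same 6 libraries. Over all 13706 tested genes, r was -0.22 and rho -0.29.

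The deviation of test replicate 2 showed the same order. In all tested genes it had medians of 0.97, 0.82, 0.52, 0.11 and -0.30 from the shortest to the longest of these 5 length classes, and in the respiratory chain genes medians of 1.16, 0.74, 0.64 and 0.46 in the 4 classes they fill. Control replicate 1 went the other way, at -0.49, -0.36, -0.24, -0.05 and 0.14 in all tested genes and at -0.62, -0.49, -0.47 and -0.42 in the respiratory chain genes. When the trend with gene length was removed from each tumor, the median log2 fold change of the 81 genes went from 0.45 to 0.09 and 52 of the 81 stayed above 0. The median deviation of test replicate 2 then went from 0.78 to 0.00, and that of control replicate 1 from -0.49 to -0.21. After that removal, the complex medians were 0.08 for complex I, -0.03 for complex II, 0.09 for complex III, 0.08 for complex IV and 0.10 for complex V. Whether differences in RNA or library preparation lie behind the trend with length was not tested.

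**Figure D4:**
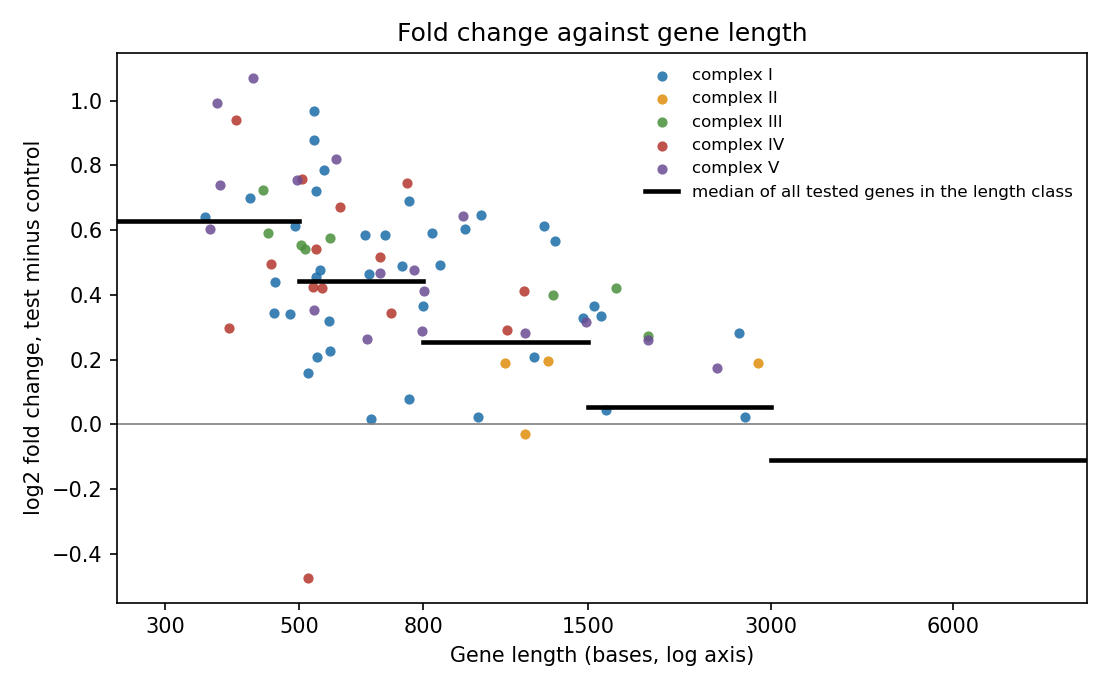
Log2 fold change (y axis, test minus control) of the 81 tested respiratory chain genes against gene length (x axis, log axis, bases), colored by complex, with black lines at the median of all tested genes in 5 length classes. Both fell with length, from a median of 0.63 under 500 bases to -0.11 in all tested genes of 3000 bases or more.

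The median was smaller without either of these 2 tumors and below 0 without both. Leaving out both was chosen after the values were seen. They were the lowest and the highest tumor for most of these genes, so a lower median follows from that choice. Without test replicate 2, the median log2 fold change was 0.10 and 56 of 81 genes were above 0, by complex 22 of 38, 3 of 4, 7 of 8, 12 of 14 and 12 of 17 from complex I to V. Without control replicate 1 it was 0.31, with 75 of 82 above 0. Without both, in the 2 test against 2 control tumors that remained, the median was -0.04 and 30 of 80 genes were above 0. The median was 0.63 without test replicate 1 and 0.55 without test replicate 3. It was 0.59 without control replicate 2 and 0.46 without control replicate 3. The scaling and the test mattered little, with medians from 0.41 to 0.47 over the settings that kept all 6 tumors and no length correction.

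**Figure D5:**
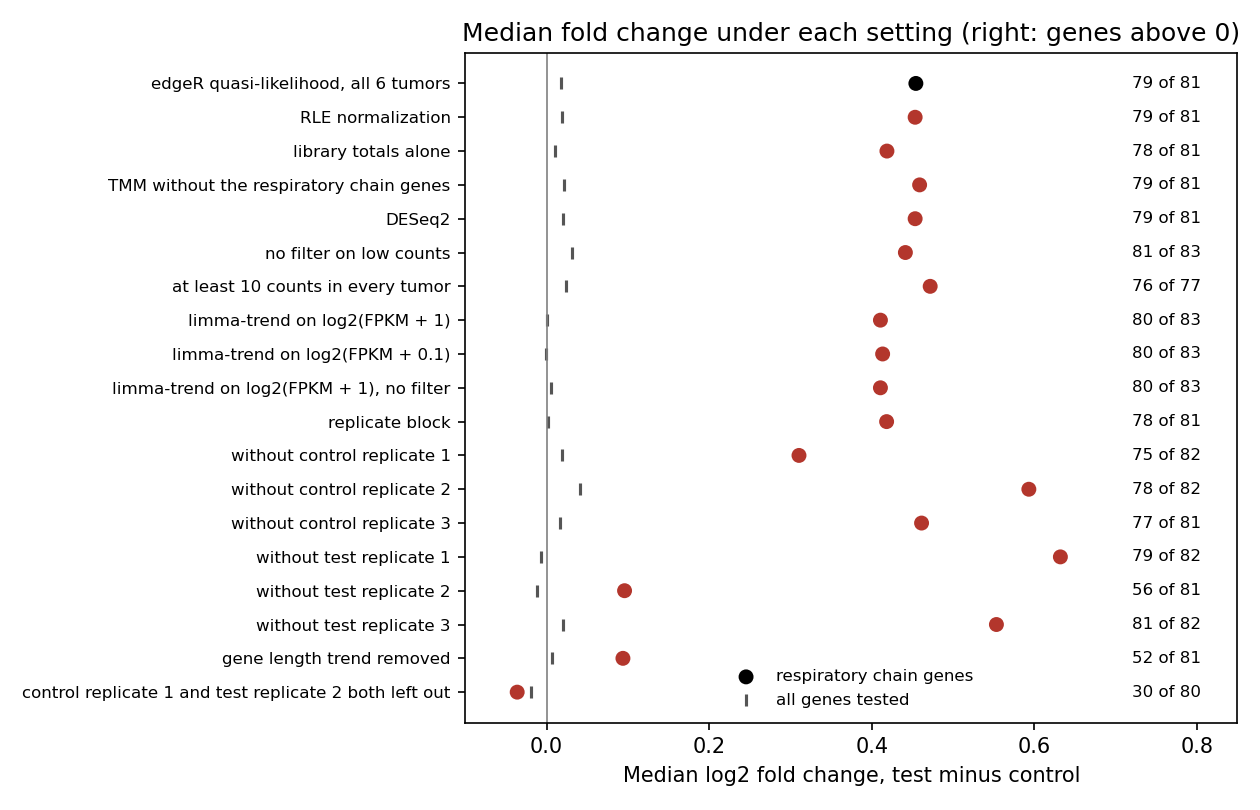
Median log2 fold change (x axis, test minus control) of the respiratory chain genes (dots) and of all genes tested (ticks) under each setting (y axis), with the number of respiratory chain genes above 0 on the right. The median was 0.45 in all 6 tumors, 0.10 without test replicate 2, 0.09 with the trend with gene length removed and -0.04 without control replicate 1 and test replicate 2.

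Median differences were smaller in other mitochondrial genes around the chain. Of the 47 tested nuclear assembly factors, which build the complexes without being part of them, 37 had a log2 fold change above 0, with a median of 0.13, 0 called by edgeR at a false discovery rate of 0.05 and 0 with an unadjusted p under 0.05. *Sdhaf1*, an assembly factor of complex II, had the largest log2 fold change of the list, with 9.61, 17.4 and 15.0 CPM in the control tumors and 28.5, 37.2 and 14.7 CPM in the test tumors (log2 fold change 0.93, SE 0.41, edgeR adjusted p = 0.606). *Ndufaf6*, of complex I, followed with a log2 fold change of 0.87 (SE 0.49). Among the 8 mobile carriers and other entries into ubiquinone, 6 were above 0, with a median of 0.18. *Cyc1* had 70.5, 148 and 97.6 CPM in the control tumors and 94.6, 149.7 and 107 CPM in the test tumors, and its log2 fold change of 0.15 (SE 0.34, edgeR adjusted p = 0.915) lay below those of all 8 genes counted under complex III. *Etfb*, of the electron transfer flavoprotein, had 28.0, 55.3 and 40.2 and 28.0, 112 and 40.3 CPM (log2 fold change 0.55, SE 0.53). *Gpd2*, the mitochondrial glycerol phosphate dehydrogenase, had 61.2, 63.0 and 64.0 and 48.1, 34.7 and 57.1 CPM, with every test tumor below every control tumor (log2 fold change -0.43, SE 0.26, edgeR adjusted p = 0.70). This was 1 of the 8 genes, against 5.86% of all tested genes in that direction.

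Of the 18 genes of the citric acid cycle and pyruvate dehydrogenase, 11 were above 0, with a median of 0.07. The largest values were those of *Suclg1*, a subunit of succinyl-CoA ligase (log2 fold change 0.44, SE 0.33), and of *Ogdh*, of the 2-oxoglutarate dehydrogenase complex, with 299, 349 and 315 CPM in the control tumors and 298, 171 and 266 CPM in the test tumors (log2 fold change -0.39, SE 0.29, edgeR adjusted p = 0.752). Test tumors were all below control tumors for *Ogdh*, with test replicate 1 just below control replicate 1. They were all above control tumors for *Dld*, the dihydrolipoamide dehydrogenase shared by these complexes, named after its values were seen, with 76.7, 117 and 90.9 and 128, 124 and 119.9 CPM (log2 fold change 0.38, SE 0.24, edgeR adjusted p = 0.707). Each direction held 1 of the 18 genes, against 5.86% of all tested genes below and 6.12% above. The list of 19 core subunits covered nuclear genes of complexes I, II, III and V and none of complex IV. It had a median log2 fold change of 0.28 with 18 above 0, at a median length of 1313 bases. Median lengths of the assembly factors and of the citric acid cycle genes were 1451 and 2268 bases. With the trend with gene length removed, the medians were -0.01 for assembly factors, 0.06 for carriers, 0.05 for the citric acid cycle and 0.17 for core subunits. The 13 genes of the mitochondrial genome that encode other subunits were not analysed here.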

How the data were processed

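The authors sequenced total RNA of 6 tumors on an Illumina HiSeq, aligned reads to mm10 with Bowtie, and deposited expected counts, FPKM and gene lengths per tumor. The labels also name RSEM and BWA without a role, and counting strand and annotation release are not given in the sources used here. The deposited expected counts are not normalized, and the deposited FPKM is normalized by the authors for gene length and depth. Genes not listed in a tumor were set to 0. Of 18460 gene identifiers, 18400 were matched to RefSeq genes on GRCm38 by identifier, 13 by transcript, and 47 had no match.

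Rounded expected counts went into edgeR 4.0.16 under R 4.3.3 (filterByExpr, TMM, quasi-likelihood test of 3 test against 3 control tumors without covariates, Benjamini-Hochberg adjustment over 13706 genes). The SE of a log2 fold change was derived from the F statistic (absolute log2 fold change over root F). Exact permutation tests were two-sided on log2(CPM + 0.5). The floor of 3 counts covers counting error only. Replicate numbers did not pair the tumors.

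Genes named are isoform genes, catalytic subunits, the highest, most raised and most lowered gene of each complex, those with an unadjusted p under 0.05 and those without overlap of the groups. Other lists of mitochondrial genes give values for their 2 largest changes. Marker lists of cell types are given mainly as summed levels, and their markers with an unadjusted p under 0.05 are not all named. The genes and lists were chosen with earlier results of these data known. Alternatives were RLE, library totals alone, TMM without the respiratory chain genes, DESeq2 1.42.0, 2 other filters, limma 3.58.1 on FPKM, a replicate block, each tumor left out, a correction of every tumor for gene length by edgeR offsets, and control replicate 1 with test replicate 2 left out. The fits were checked on simulated counts of 13706 genes, of which 200 were changed. There edgeR called 83 genes, of which 77 were changed genes. DESeq2 called 165 genes in the same counts, of which 51 were not changed. Other samples and the protein data of the study were not analysed here.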

Additional observations from a re-analysis of the deposited data

How the results depend on the processing

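At totals of 8373390 to 9449565 counts per tumor, 81 of the 83 listed genes passed the filter on low counts. No respiratory chain gene was called at a false discovery rate of 0.05 under any of the 18 alternatives. Of all genes tested, edgeR called 0, DESeq2 313, limma on log2(FPKM + 1) 1, and leaving out 1 tumor 0 to 182 (182 without control replicate 2). The cause was not tested. The count of respiratory chain genes at an unadjusted p under 0.05 was 1, against 2 with RLE, with TMM without these genes, with DESeq2 and with at least 10 counts in every tumor, 3 without a filter, and 0 in all 3 limma fits and in both alternatives chosen after seeing the data (gene length trend removed, and control replicate 1 and test replicate 2 left out). It was 0 to 11 with 1 tumor left out, with 11 without test replicate 1. Their median log2 fold change was 0.10 to 0.63 with 1 tumor left out, 0.10 without test replicate 2, and -0.036 without control replicate 1 and test replicate 2. With replicate number as a block, the median was 0.42, 3 genes had an unadjusted p under 0.05 and none was called. The numbers did not pair the tumors (correlations of the deviations of -0.03, 0.11 and -0.14 for replicates 1, 2 and 3).

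Of 571 log2 fold changes of the 32 tested genes named in the text under these alternatives, 45 changed sign, and none was called. Without control replicate 1 and test replicate 2, values that changed from above to below 0 were those of *Atp5a1* (-0.035), *Atp5b* (-0.068), *Atp5e* (-0.076), *Atp5g1* (-0.34), *Atp5g2* (-0.20), *Cox7a1* (-0.41), *Cox7a2l* (-0.042), *Cox8b* (-0.46), *Ndufa4* (-0.015), *Ndufa4l2* (-0.11), *Ndufs1* (-0.10), *Ndufv1* (-0.035), *Sdhb* (-0.070), *Sdhd* (-0.12) and *Uqcr11* (-0.029). With the length trend removed, such values were those of *Atp5g1* (-0.0020), *Atp5g2* (-0.17), *Cox8a* (-0.044), *Cox8b* (-0.18), *Ndufa4l2* (-0.33), *Sdhb* (-0.042) and *Sdhd* (-0.015). In the limma fits, *Cox6b2* was 0.11 on log2(FPKM + 1), with or without the filter, and 0.12 on log2(FPKM + 0.1), and *Ndufa4l2* was -0.047 and -0.11. With the replicate block *Ndufa4l2* was -0.069. With 1 tumor left out, ranges across 0 were -0.013 to 0.34 for *Atp5a1*, -0.11 to 0.80 for *Atp5g1*, -0.10 to 0.43 for *Atp5g2*, -1.25 to 2.75 for *Cox6b2*, -0.23 to 2.54 for *Cox8b*, -0.32 to 0.45 for *Ndufa4l2*, -0.037 to 0.12 for *Ndufs1* and -0.11 to 0.056 for *Sdhc*. Log2 ratios of the summed FPKM, test over control, were 0.43, 0.11, 0.52, 0.51 and 0.44 for complexes I to V, and each stayed within 1 SD with CPM in place of FPKM.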

Other observations

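Of 15 regulators of mitochondrial biogenesis tested, 6 had a log2 fold change above 0 (median -0.03), 0 were called by edgeR and 0 had an unadjusted p under 0.05. *Esrrg*, an estrogen-related receptor, had 9.03, 14.1 and 23.2 CPM in the control tumors and 57.2, 12.8 and 33.1 CPM in the test tumors (log2 fold change 1.15, SE 0.57, edgeR adjusted p = 0.657). *Ppard*, a lipid-activated receptor, had 97.1, 46.3 and 61.0 CPM in the control tumors and 61.9, 22.7 and 42.8 CPM in the test tumors (log2 fold change -0.68, SE 0.43). The list was made of long genes, with a median of 3656 bases, and test replicate 2 was the highest tumor for 1 of the 15.

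Of 16 outer membrane and general mitochondrial genes tested, 14 had a log2 fold change above 0 (median 0.16) and 0 had an unadjusted p under 0.05. *Tomm40*, the import channel, had 54.0, 88.4 and 73.8 CPM in the control tumors and 58.6, 176 and 77.6 CPM in the test tumors (log2 fold change 0.53, SE 0.44). *Phb*, prohibitin, had 102.9, 204.9 and 118 CPM and 121, 289.8 and 154 CPM (log2 fold change 0.41, SE 0.42). Test replicate 2 was the highest tumor for 11 of the 16 genes.

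Marker lists of other cells gave these summed levels. The 5 basal or myoepithelial markers had 670.4, 394 and 2746 CPM in the control tumors and 1072, 616 and 456 CPM in the test tumors. The 5 macrophage markers had 359.8, 339 and 695 CPM and 238, 475 and 223 CPM, the 5 endothelial markers 128, 92.2 and 123 CPM and 102, 109 and 133 CPM, and the 6 brown adipocyte markers 23.8, 17.8 and 33.1 CPM and 26.6, 17.1 and 23.8 CPM. Of 6 T cell markers, 5 were listed, with 3.5 to 6.0 CPM in all.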
